A study of Homo sapiens with 6 samples.

Results

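Open chromatin regions called only in the gemcitabine library and lying far from gene starts were described in PANC1 cells, an established human pancreatic ductal carcinoma line. Gemcitabine is a deoxycytidine analogue that is built into DNA and stalls replication forks. The regions were chosen by the deposited DNaseI peak calls themselves: a peak of the gemcitabine list was a member when it overlapped no vehicle peak by even 1 base and lay more than 1 kb from every protein-coding transcription start. The mitochondrial genome was left out. Of the 10695 peaks of the gemcitabine list, 3597 (33.6%, 95% Wilson interval 32.7 to 34.5%) were members. The DNaseI data were 1 library of cells given 50 nM gemcitabine and 1 library of cells given vehicle. The RNA data, which the choice of regions did not use, were 2 libraries of cells given 50 nM gemcitabine and 2 of cells given vehicle (0.1% DMSO), both for 48 h. The study's text places DNaseI-seq under the conditions of the RNA-seq without repeating the time, and names 1 biological replicate a condition. No genotype or transgene separated the groups, and all libraries came from the same line.

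DNaseI cuts DNA where nucleosomes have been displaced, so a pile of cut ends marks a stretch that proteins can reach. Away from gene starts such stretches are often enhancers, where transcription factors bind short DNA words and act on a promoter at a distance. In epithelial tumour cells many of these distal sites carry the word of AP-1, a dimer of FOS and JUN family proteins that responds to growth signals and stress. TEAD factors, which carry the output of the Hippo pathway through YAP and TAZ, often bind the same stretches. CTCF, a zinc finger protein, marks the borders of chromatin loops.

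The windows of 7 members are shown because the genes with the nearest start were among the largest RNA changes or stood in a fixed pathway list, and because they show both words in place. Chosen partly for the words, they do not show how often members hold them. Each is the 300 bases around the centre of a member, read 5′ to 3′ on the plus strand of GRCh37 (the build called hg19). Capitals mark the AP-1 word TGAGTCA or, on the other strand, its complement, and the TEAD word GGAATG or its complement. The window near TMEM217 (chr6:37207799-37208098), in an intron of a protein-coding gene, and that near MALL (chr2:110859090-110859389), also in an intron, held 1 AP-1 word each, and the MALL window held 1 TEAD word as well. The windows near HES1 (chr3:193859659-193859958), KLF4 (chr9:110267002-110267301) and EPHA2 (chr1:16499736-16500035) lay between genes and held 1 AP-1 word each. The window near ANKRD1 (chr10:92690419-92690718), between genes, held 2 TEAD words and no AP-1 word. The window near ELF3 (chr1:202026036-202026335), between genes, held neither and is shown for its high score.
TMEM217: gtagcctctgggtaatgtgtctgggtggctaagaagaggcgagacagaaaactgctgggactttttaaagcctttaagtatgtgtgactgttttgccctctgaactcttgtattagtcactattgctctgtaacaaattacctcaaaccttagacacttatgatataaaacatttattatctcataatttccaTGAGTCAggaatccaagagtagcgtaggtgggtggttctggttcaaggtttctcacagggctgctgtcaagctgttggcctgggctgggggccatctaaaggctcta
MALL: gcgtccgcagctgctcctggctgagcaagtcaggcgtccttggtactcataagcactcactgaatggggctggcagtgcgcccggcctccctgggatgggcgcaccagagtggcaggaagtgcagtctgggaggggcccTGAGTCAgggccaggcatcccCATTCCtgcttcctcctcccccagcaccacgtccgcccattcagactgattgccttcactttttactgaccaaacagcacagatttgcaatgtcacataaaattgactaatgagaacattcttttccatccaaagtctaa
HES1: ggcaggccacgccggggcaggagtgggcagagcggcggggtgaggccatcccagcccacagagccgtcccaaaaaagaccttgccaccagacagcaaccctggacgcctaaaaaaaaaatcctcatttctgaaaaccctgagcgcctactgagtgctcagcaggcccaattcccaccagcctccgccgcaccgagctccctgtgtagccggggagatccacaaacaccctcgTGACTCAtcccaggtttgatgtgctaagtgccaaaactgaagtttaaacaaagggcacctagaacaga
KLF4: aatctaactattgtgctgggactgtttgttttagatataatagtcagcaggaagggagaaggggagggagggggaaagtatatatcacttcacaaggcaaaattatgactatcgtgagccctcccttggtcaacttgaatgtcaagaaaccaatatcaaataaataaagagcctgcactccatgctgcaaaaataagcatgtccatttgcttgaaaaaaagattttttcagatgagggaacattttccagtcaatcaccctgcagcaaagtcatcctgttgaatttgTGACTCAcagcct
EPHA2: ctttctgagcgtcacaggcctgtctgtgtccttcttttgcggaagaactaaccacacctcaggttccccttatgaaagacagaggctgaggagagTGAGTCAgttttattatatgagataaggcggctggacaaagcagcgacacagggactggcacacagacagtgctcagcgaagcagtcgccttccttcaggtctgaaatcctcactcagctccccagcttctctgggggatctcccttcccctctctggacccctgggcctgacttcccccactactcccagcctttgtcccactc
ANKRD1: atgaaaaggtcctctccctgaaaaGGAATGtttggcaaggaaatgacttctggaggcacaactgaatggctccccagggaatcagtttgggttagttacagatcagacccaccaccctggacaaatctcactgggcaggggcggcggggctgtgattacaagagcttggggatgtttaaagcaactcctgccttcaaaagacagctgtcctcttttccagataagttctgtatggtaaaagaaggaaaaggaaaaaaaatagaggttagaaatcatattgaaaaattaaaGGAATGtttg
ELF3: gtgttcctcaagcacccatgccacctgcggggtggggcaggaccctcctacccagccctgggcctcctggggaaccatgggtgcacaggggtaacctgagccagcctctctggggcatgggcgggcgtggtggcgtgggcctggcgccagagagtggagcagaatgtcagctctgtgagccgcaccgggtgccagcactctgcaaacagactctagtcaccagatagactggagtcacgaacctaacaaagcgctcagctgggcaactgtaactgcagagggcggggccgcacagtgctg

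Most members were weak peaks. The deposited score (10 times the negative log10 of the peak caller's p-value, lowest 50) had a median of 62.8 over the members, with quartiles of 54.9 and 76.6 and a highest value of 294.93. Over the 3034 distal peaks that did overlap a vehicle peak the median was 88.3, and over the 3100 vehicle-only distal peaks it was 60.5. A score of at least 100 was held by 282 members (7.84%), 1183 shared distal peaks (39.0%) and 163 vehicle-only distal peaks (5.26%). Scores chose the members in part, since a region with a weak peak in one list can fall short of the caller's limit in the other, and these values are a description. A region without a vehicle peak may have had vehicle signal under that limit, and the peak lists do not show which.

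The share of distal gemcitabine peaks without a vehicle overlap was lower at each higher bin of the score. It was 77.2% (1526 of 1976) at scores of 50 to 60, 62.7% (1305 of 2083) at 60 to 80 and 43.7% (484 of 1107) at 80 to 100. It was 22.9% (249 of 1088) at 100 to 150, 11.1% (29 of 262) at 150 to 200 and 3.48% (4 of 115) at 200 or more. Over all distal gemcitabine peaks the share was 54.2%, and the like share of distal vehicle peaks without a gemcitabine overlap was 50.5%. At starts the shares were lower, 38.3% of gemcitabine peaks and 27.7% of vehicle peaks. With 1 DNaseI library a condition there was no test of these differences, and intervals cover counting error only.

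**Figure D1:**
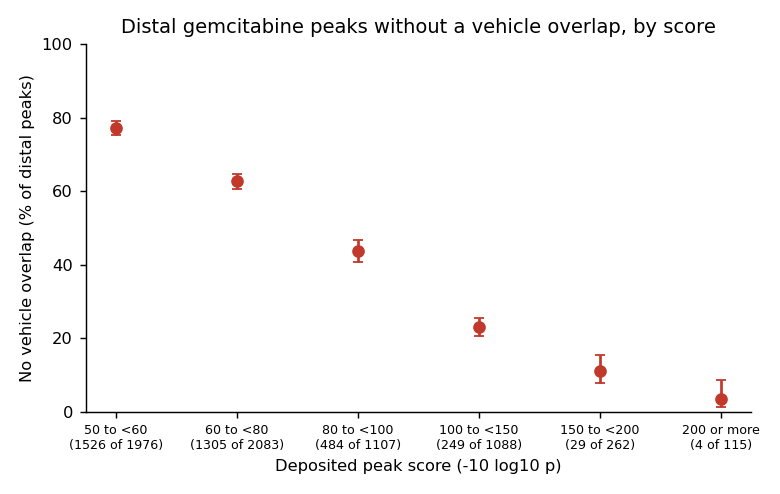
Share of distal gemcitabine peaks that overlapped no vehicle peak (vertical axis, percent) by deposited score (horizontal axis), with 95% Wilson intervals and the counts under each bin. The points step down from 77.2% at scores of 50 to 60 to 3.48% at 200 or more.

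Members were narrower than shared distal peaks, with a median width of 896 bases against 1094.5, and wider than vehicle-only distal peaks, with 777. Their median distance to the nearest protein-coding start was 31705 bases, with quartiles of 11736 and 82922. For shared distal peaks it was 36054.5 bases and for vehicle-only distal peaks 43031. Of the members, 358 (9.95%) lay within 5 kb of a start, 768 (21.4%) within 10 kb and 2262 (62.9%) within 50 kb, while 760 (21.1%) lay over 100 kb away. The nearest vehicle peak was a median of 50374 bases away. A vehicle peak lay within 500 bases of 20 members and within 2 kb of 83 members.

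At the limits of the rule, the member closest to a start was 1006 bases from that of BCAN, with a score of 80.38. The peak just outside was 991 bases from the start of CLEC19A, with a score of 66.9. The member closest to a vehicle peak lay 95 bases from it, near SLC36A4, with a score of 52.61. The distal peak with the smallest overlap shared 17 bases with a vehicle peak, near RNLS, with a score of 51.66. The lowest member score was 50, near CYP4F22. The values on both sides of each limit lay close together.

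Introns of protein-coding genes held the centres of 1629 members (45.3%, 43.7 to 46.9%), and stretches between genes held 1298 (36.1%). A further 561 (15.6%) lay in another annotated gene such as a long noncoding RNA or pseudogene, 63 in a 3' UTR, 41 in a coding exon and 5 in a 5' UTR. Introns held 41.2% of shared distal and 41.0% of vehicle-only distal peaks, a few points fewer. For 1473 members (41.0%) the gene they lay in was also the gene with the nearest start. A start of some annotated gene of any kind lay within 1 kb of 458 members (12.7%). Runs with gaps of at most 12.5 kb held 341 members (9.48%), 13.9% of shared distal peaks and 8.03% of vehicle-only distal peaks. The 9 runs of 3 lay nearest to PPP1R3C, ABTB2, PPFIBP1, AHNAK2, FOXF1, CPN2, SMIM14, CEMIP2 and EIF2S3, and no run of members was longer than 3.

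The chromosomes differed in how members compared with vehicle-only distal peaks. Chromosome 19 had 117 members and 44 vehicle-only distal peaks, a ratio of 2.66, the highest of the autosomes. Chromosome 14 had 88 and 45, a ratio of 1.96, and chromosome 18 had 81 and 44, a ratio of 1.84. Among the autosomes with the lowest ratios, chromosome 13 had 66 and 108, a ratio of 0.611, and chromosome 5 had 199 and 256, a ratio of 0.777. Chromosome 19 is rich in genes and in G and C, and members as a whole were richer in G and C than vehicle-only peaks. The median GC content of the 300 central bases was 43.0% for members, 43.7% for shared distal peaks and 39.7% for vehicle-only distal peaks. The flanks 2 kb away had 44.3% for members and 41.7% for vehicle-only distal peaks, so the difference in base composition reached beyond the peaks. Read depth and base composition of the DNaseI libraries were not analysed here, and the part of GC content in these ratios was not tested.

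The 10 members with the highest scores were a mixed group. The highest, with a score of 294.93, lay at chr14:94848773-94849635 in a coding exon of SERPINA1, which encodes the protease inhibitor alpha-1 antitrypsin. A member with a score of 222.29 lay between genes at chr4:22711245-22713125, with ADGRA3 as the nearest start at 193556 bases. Those nearest to CYP4X1 (213.43), DLC1 (201.61), BLM (195.95), MYLIP (188.81), TENM4 (180.6), FN1 (174.22), PLCG2 (172.1) and CHD6 (169.26) followed. The SERPINA1 gene had 0 and 2 estimated fragments in the vehicle libraries and 8 and 11 in the gemcitabine libraries. These levels were higher with gemcitabine in both libraries, but mean FPKM (a level per transcript length and library depth) was 0.441 with gemcitabine, below the difference of 1 that a call required. Of the 10 genes, FN1 was called higher in RNA, and its top-scoring member lay 182805 bases from the nearest FN1 start.

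Of the 19 motifs searched, the AP-1 word had the widest gap between member centres and flanks in percentage points. It was in 658 of 3597 central windows (18.3%, 17.1 to 19.6%) and in 4.92% of 7120 windows of the same length 2 kb to either side, a ratio of 3.72. Shared distal peaks had it in 24.8% (23.3 to 26.4%) against 4.78% in flanks, and vehicle-only distal peaks in 22.9% against 4.48%. Gemcitabine-only peaks at starts had it in 4.76% against 4.22%. Members thus held the word less often than both other distal classes and far more often than their own flanks. Regions are not replicates of a condition, so these shares were set side by side without a test.

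Among members with the word, 591 had 1 copy, 58 had 2 and 9 had 3 or more. In bins of 50 bases the word was in 4.00% of members in the bin just right of the centre and in 3.45% in the bin just left. In the outermost bins, just under 1 kb from the centre, it was in 0.834% on the left and 0.695% on the right. The corresponding bins at the centre held it in 4.88% and 4.98% of shared distal peaks and in 5.29% and 4.77% of vehicle-only distal peaks. The rise was centred on the regions in all 3 distal classes and was lowest in the members.

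**Figure D2:**
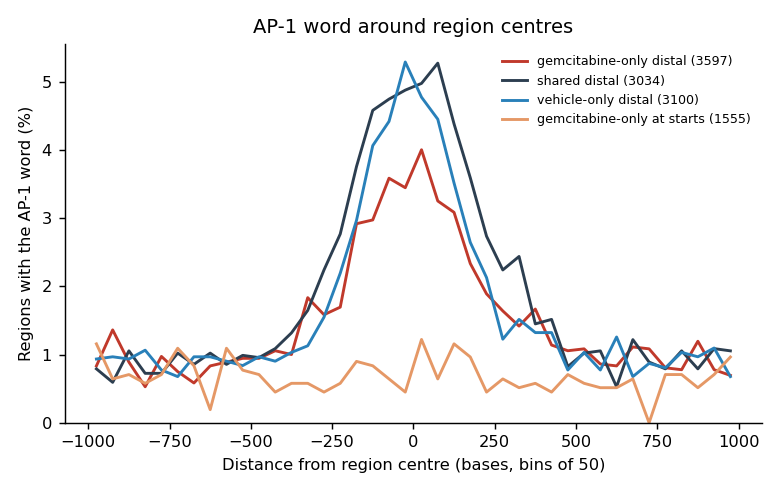
Share of regions with the AP-1 word (vertical axis, percent) in bins of 50 bases by distance from the region centre (horizontal axis), with 1 line for each class and its number of regions. The members' line rises to 4.00% at the centre, below the shared distal line, while the line of gemcitabine-only peaks at starts stays flat.

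The AP-1 shares were also set side by side at like scores. At scores of 50 to 60 the word was in 16.6% of 1526 members, 23.8% of 450 shared distal peaks and 19.7% of 1498 vehicle-only distal peaks. At scores of 60 to 80 the shares were 19.6%, 27.8% and 24.3%, and at 80 to 100 they were 21.1%, 26.3% and 30.8%. At 100 or more they were 16.3% of 282 members, 22.5% of 1183 shared distal peaks and 25.8% of 163 vehicle-only distal peaks. The members had the lowest share in each of the 4 bins, and in each their interval overlapped that of at least 1 other class. By position, the word was in 18.8% of members in introns, 18.2% of those between genes and 17.5% of those in other annotated genes, with overlapping intervals. It was in 8 of 41 members in coding exons and 8 of 63 in a 3' UTR.

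Other words were compared in the same way. The TEAD word GGAATG was in 23.5% of member windows and 16.1% of flanks, with 25.5% in shared and 23.4% in vehicle-only distal peaks. The C/EBP word TTGCNNAA was in 21.5% against 14.4% in flanks, below the 26.0% of vehicle-only distal peaks. The FOX word TGTTTAC was in 7.03% against 4.13%, and the RUNX word TGTGGTT in 7.42% against 5.49%, with 9.87% of vehicle-only distal peaks. The cyclic AMP response element TGACGTCA was rare, in 36 members (1.00%), with 0.0843% of flanks (a ratio of 11.9, above that of AP-1), 1.98% of shared and 0.742% of vehicle-only distal peaks. Each word was searched on both strands, and a match is a description, not a bound site.

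Words rich in G and C divided the classes the other way. The SP/KLF word GGGCGG was in 11.0% of member windows and 11.0% of shared distal windows but in 5.87% of vehicle-only distal windows, with 6.36% in the members' flanks. The CTCF core AGGGGGC was in 5.17% of members (4.49 to 5.94%), 4.25% of shared and 2.81% of vehicle-only distal peaks. The flanks of the members had the CTCF core in 3.74% and those of vehicle-only distal peaks in 2.82%. These classes also differed in GC content, as given above, and its part in these shares was not tested. Of the members, 5.12% had 15 or more CG dinucleotides in the window, against 3.58% of vehicle-only distal peaks and 71.1% of gemcitabine-only peaks at starts.

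Words of factors that act in the DNA damage and inflammatory response were also searched. The NF-kB motif was in 135 members (3.75%, 3.18 to 4.43%) against 3.06% in flanks, 3.89% in shared and 3.35% in vehicle-only distal peaks. The interferon-response word GAAANNGAA was in 12.2% against 10.0% in flanks, and in 13.5% of vehicle-only distal peaks. The STAT word TTCNNNGAA was in 13.1% against 8.24%. The CArG box of SRF was in 2.11% against 1.26%. The full p53 site was in 2 members (0.0556%) and 0 of 7120 flanks, both members in introns, one 107910 bases from the start of GPHN and one 87119 bases from that of NHS. The ZEB/SNAI E-box CAGGTG, by contrast, was less frequent at the centre (16.3%) than in flanks (26.1%), as in shared distal peaks (16.1% against 27.2%). The word TGTAATCCC, found in Alu repeats, was in 0.862% of centres and 12.4% of flanks. How often it shared a window with the E-box was not counted.

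**Figure D3:**
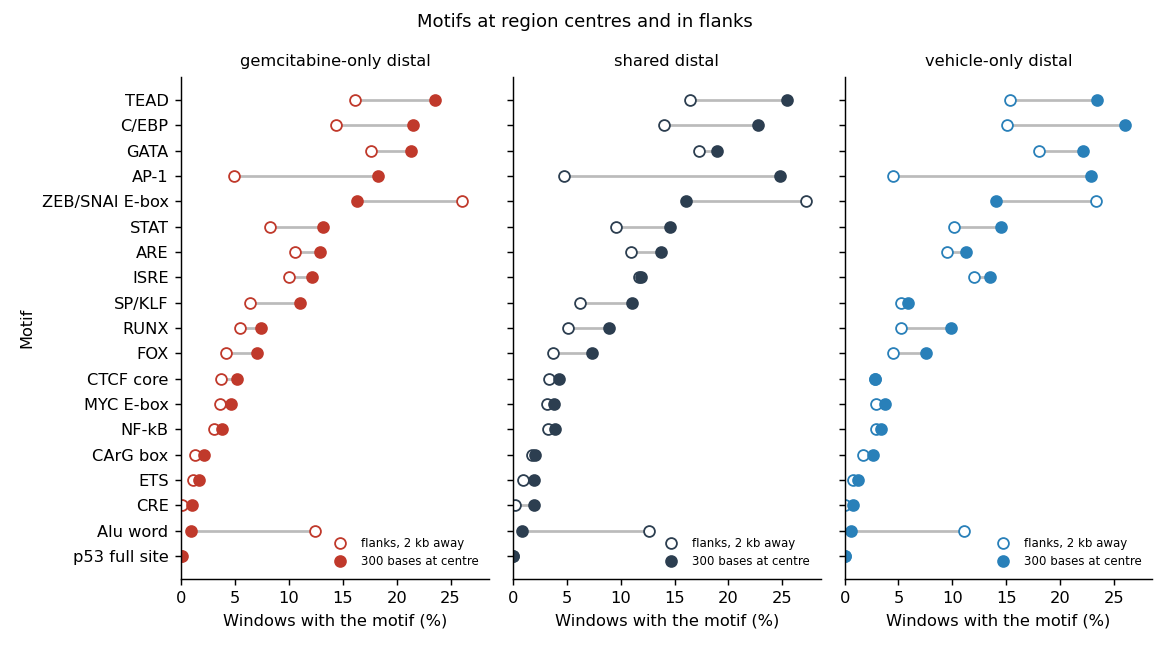
Share of windows with each motif (horizontal axis, percent) at the centre of regions (filled) and 2 kb away (open) in 3 classes of distal region. AP-1 has the widest gap in percentage points in all panels, at 18.3% against 4.92% in the members, and the Alu word and the ZEB/SNAI E-box run the other way.

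Members with an AP-1 word were set beside those without it. The antioxidant response word TGACNNNGC was in 21.3% of members with AP-1 and 11.1% of those without, and its first letters can overlap the AP-1 word on the opposite strand. TEAD words were in 26.3% and 22.9%, and SP/KLF words in 7.14% and 11.9%.

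RNA of the genes nearest to members was read from the libraries that the choice of regions did not use. Across all genes the RNA libraries held 13194535 to 15766232 estimated fragments, and libraries of the same condition differed by more than sampling noise (mean chi-square per gene 2.21 for vehicle and 5.40 for gemcitabine). The labelled line was checked by its ductal markers, all 6 of which were at 1 FPKM or more in some library, while 0 of 5 haematopoietic, 0 of 3 endothelial and 0 of 4 acinar markers were. Of 6 fibroblast markers 4 were at 1 FPKM or more, with PDGFRA under 0.1 FPKM in every library, and of 3 islet markers 1 was. In bulk RNA a change in the make-up of the cells and a change of RNA per cell cannot be told apart. The labels name the RNA libraries as replicates, and p-values measure the spread between these libraries.

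A gene was called linked when it had the nearest protein-coding start of a member at 50 kb or less. A gene can have several annotated starts, some inside the gene, and each distance is to the nearest of them. Linked genes numbered 1870, of which 1640 were tested. A call needed an edgeR adjusted p under 0.05, a fold change over 1.5, a mean of at least 0.1 FPKM in 1 condition and a difference of at least 1 FPKM. By these limits 118 were called higher with gemcitabine (7.20%, 6.04 to 8.55%), beside 5.69% of all 14854 genes tested. Another 73 were called lower (4.45%), beside 4.43% of all genes tested. A gene not called could still have an adjusted p under 0.05. By that limit alone 357 linked genes were higher and 350 lower (21.8% and 21.3%, beside 18.5% and 20.0% of all genes). The log2 fold changes of the linked genes had a median of 0.01, as did those of all genes. Of all genes tested, 14154 had a protein-coding start in the annotation and so could be linked. The larger of the 2 mean FPKM had a median of 17.3 in linked genes and 14.1 in all genes tested. It was 20.4 in genes linked to shared distal peaks and 16.6 in those linked to vehicle-only distal peaks. The part of level in the shares called was not tested. Genes linked to shared distal peaks were called higher in 9.88% of 1296 and those linked to vehicle-only distal peaks in 8.67% of 1246, so the share for members was the lowest of the 3 distal classes. No test was made between these classes, and a link is a rule of distance. The lists share genes, as 309 tested genes were linked to both a member and a vehicle-only distal peak, and 7.12% of these were called higher. Scaling by library totals in place of TMM moved the median change of all genes on the log2 scale from 0.01 to 0.12, and the linked genes called then split into 165 higher and 45 lower (78.6% higher, against 61.8% with TMM).

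The share called higher was larger in both bins within 10 kb than in each bin beyond, though not in steady steps. Within 10 kb it was 9.35% of 642 genes. The share called lower followed no such order, and these shares were not tested. Genes whose nearest member lay 1 to 5 kb from the start were called higher in 25 of 307 (8.14%, 5.58 to 11.7%). That interval held the 5.69% of all genes tested and overlapped those of all bins farther out. At 5 to 10 kb 35 of 335 (10.4%, 7.61 to 14.2%) were called higher and at 10 to 25 kb 30 of 559 (5.37%, 3.78 to 7.56%). At 25 to 50 kb 28 of 439 (6.38%, 4.45 to 9.06%) were called higher and at 50 to 100 kb 17 of 323 (5.26%, 3.31 to 8.27%). Where the nearest member lay over 100 kb away it was 14 of 325 (4.31%, 2.58 to 7.10%). Genes linked to 1 member were called higher in 6.76% of 1347, those linked to 2 in 9.58% of 240 and those linked to 3 in 4.88% of 41, with overlapping intervals. Genes linked to a member with the AP-1 word were called higher in 29 of 346 (8.38%, 5.90 to 11.8%), and those linked only to members without it in 89 of 1294 (6.88%, 5.62 to 8.39%). These intervals overlap too. Genes with a gemcitabine-only peak at their own start were called higher in 5.00% of 1481.

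**Figure D4:**
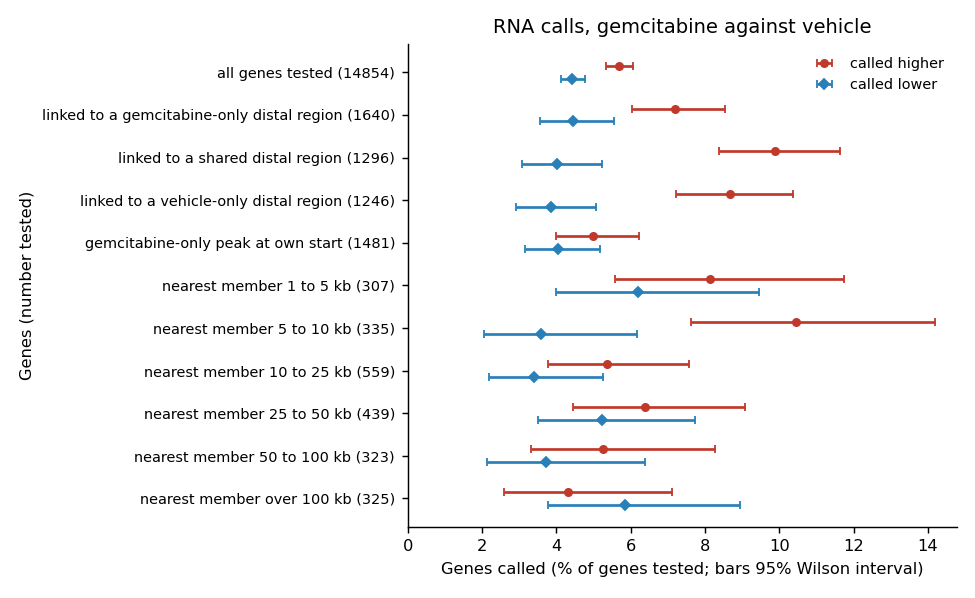
Share of tested genes called higher (circles) or lower (diamonds) in RNA with gemcitabine (horizontal axis, percent, bars 95% Wilson intervals) by which regions they were linked to (vertical axis, number tested). Genes linked to members sit at 7.20% higher, between all genes at 5.69% and genes linked to shared distal peaks at 9.88%.

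Among the linked genes with the largest rises, ANKRD1, an ankyrin repeat protein and well-known target of YAP and TEAD, had 10 and 4 estimated fragments in the vehicle libraries and 85 and 60 in the gemcitabine libraries. The largest rises and falls were chosen among genes whose fragments did not overlap between the conditions, so that separation is no result. The log2 fold change was 3.46 with an SE of 0.39 (edgeR quasi-likelihood test with Benjamini-Hochberg adjustment, adjusted p = 8.4e-06). Its member lay 9.161 kb upstream with a score of 64.48, at chr10:92690005-92691131, and its nearest vehicle peak was 701.313 kb away. No peak of either list lay at the start of ANKRD1, so this was the sole peak of either list linked to it.

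ELF3, an epithelial ETS transcription factor, had 66 and 60 fragments with vehicle and 316 and 340 with gemcitabine. The fitted log2 fold change was 2.49 with an SE of 0.14 (edgeR, adjusted p = 3.3e-08). The member linked to it lay 45.851 kb downstream and had a score of 162.5, and ELF3 also had 3 shared distal peaks and a shared peak at its start. MALL, a membrane protein of lipid rafts, had 14 and 30 fragments with vehicle and 95 and 99 with gemcitabine. Its log2 fold change was 2.25 with an SE of 0.28 (edgeR, adjusted p = 2.4e-05), and its member, in an intron, carried the AP-1 word shown above. TMEM217 had 15 and 21 fragments with vehicle and 122 and 91 with gemcitabine. The change was 2.67 on the log2 scale (SE 0.27, edgeR adjusted p = 3.4e-06), and the member with its AP-1 word lay 17.007 kb downstream.

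The other large rises were in genes at low levels, as were those of ANKRD1 and MALL, at means of 2.67 and 2.38 FPKM with gemcitabine. LYPD3, a cell surface protein of the urokinase receptor family, went from 20 and 30 fragments to 117 and 109. KCNJ15, an inward rectifier potassium channel, had 16 and 14 fragments with vehicle and 58 and 60 with gemcitabine, and 3 members, the nearest 3.643 kb from its start with a score of 110.82, beside 2 vehicle-only distal peaks. Its FPKM overlapped between conditions (1.78 and 0.499 with vehicle, 1.76 and 3.18 with gemcitabine), and its call was lost without vehicle replicate 2 or gemcitabine replicate 2, at log2 fold changes of 1.96 and 2.04. SH3TC2 (10 and 8 against 65 and 56 fragments), C11orf96 (20 and 17 against 89 and 91), FAM167B (13 and 11 against 54 and 50) and DIRAS3 (5 and 10 against 27 and 27) completed the group of 10. DIRAS3, a RAS-related protein that restrains growth, lost its call without vehicle replicate 1, at 1.57.

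The largest falls included a pair of HES genes, which encode repressors of transcription that act downstream of Notch and in developmental clocks. HES1 had 650 and 680 fragments with vehicle and 302 and 295 with gemcitabine. The change was -1.04 on the log2 scale with an SE of 0.09 (edgeR, adjusted p = 7.2e-07). Its 2 members lay 23.142 kb upstream and 5.26 kb downstream, the latter with the AP-1 word, and its own start carried a vehicle-only peak. HES7 had 90 and 86 fragments with vehicle and 40 and 19 with gemcitabine, and its member lay 2.334 kb upstream. WDR89 had 156 and 179 fragments with vehicle and 72 and 74 with gemcitabine. KICS2, a part of the KICSTOR complex that restrains mTORC1, had 268 and 308 against 135 and 122. HOXD10, a homeobox factor, had 111 and 85 against 52 and 27. HES7 and HOXD10 lost their calls without vehicle replicate 1, at log2 fold changes of -1.39 and -0.95. Gemcitabine-only open regions stood near genes called lower as well as near genes called higher.

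**Figure D5:**
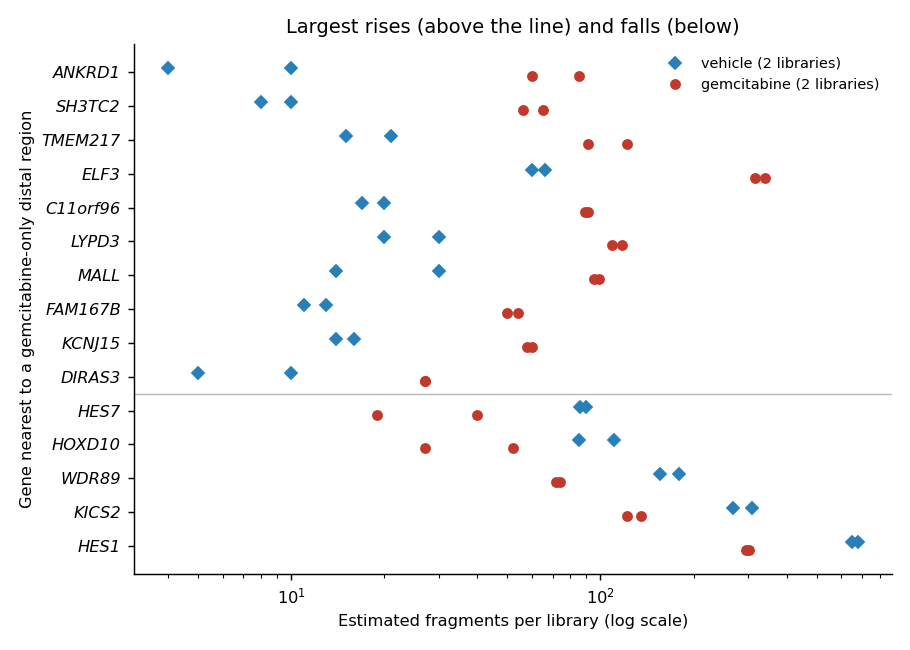
Estimated fragments per library (horizontal axis, log scale) for the 10 largest rises and 5 largest falls among genes linked to members, with 1 point per library, 2 per condition. The genes were chosen for values that do not overlap between conditions, and range in level from DIRAS3 (5 and 10 against 27 and 27) to HES1 (650 and 680 against 302 and 295).

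Of 27 tested genes listed as p53 targets, 10 were called higher and 0 lower, beside 5.69% and 4.43% of all genes tested. Their median change was 0.46 on the log2 scale. The list names genes that p53 can switch on after DNA damage. The state and activity of p53 in these cells were not measured, and the part of p53 in these changes was not tested. A member was linked to 4 of them (14.8%), beside 11.0% of all genes tested. CDKN1A, which encodes the cell cycle inhibitor p21, had 1933 and 2056 fragments with vehicle and 4581 and 4458 with gemcitabine. That is a log2 fold change of 1.29 with an SE of 0.07 (edgeR, adjusted p = 1.6e-08). Its member lay 32.96 kb upstream with a score of 61.87 and had no AP-1 word. GADD45A, a growth arrest and DNA damage protein, had 210 and 225 against 367 and 324 fragments, and SESN2, a stress-induced regulator of mTORC1, 136 and 171 against 273 and 248, both called higher. BTG2, an antiproliferative protein, had 303 and 344 against 396 and 472 and was not called. At 9.438 kb the member of SESN2 was the closest to a start of these.

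Of 28 tested NF-kB subunits and targets, genes of inflammation and survival, 15 were called higher and 0 lower, beside 5.69% and 4.43% of all genes tested. A member was linked to 7, and to 11.0% of all genes. Of the 7, 2 were called higher. BIRC3, an inhibitor of apoptosis, had 168 and 183 fragments with vehicle and 370 and 388 with gemcitabine. Its log2 fold change was 1.22 with an SE of 0.11 (edgeR, adjusted p = 1.2e-06), with the member 48.272 kb upstream and a gemcitabine-only peak at its start. NFKBIZ, an atypical IkB protein, had 87 and 95 against 166 and 114 fragments, and its call was lost without any 1 of vehicle replicate 1, vehicle replicate 2 or gemcitabine replicate 1, at log2 fold changes of 0.45 to 0.77. RELA, CXCL3, CCL2, IER3 and TRAF1 were linked and not called, IER3 at a log2 fold change of 0.45, below the fold required. On adjusted p alone 4 of the 7 were higher and 0 lower. TRAF1, a signalling adaptor, had 38 and 41 against 78 and 78 fragments, with a mean of 0.801 FPKM under gemcitabine, too low for the required difference. Interferon-stimulated genes were the list with the most calls for their number, 15 of 23 higher, yet 2 were linked (8.70%), IRF2 among them, and neither was called.

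Of 16 tested AP-1 factors and partners, 2 were called higher and 1 lower, beside 5.69% and 4.43% of all genes tested. A member was linked to 7 (43.8%, beside 11.0% of all genes), the largest linked share of the 10 lists. A vehicle-only distal peak was linked to 1, beside 1246 of all 14854. Of the 7, FOS, ATF3, MAFK, JDP2 and BACH1 were also linked to shared distal peaks. In other lists members did not always lead. Members and vehicle-only distal peaks were linked to 7 and 8 NF-kB genes, 4 and 4 p53 targets, and 7 and 9 transition and matrix genes. They were linked to 5 and 4 Hippo, 4 and 2 receptor kinase and ERK, and 3 and 1 apoptosis genes. The interferon list had 2 and 1, the pancreatic list 2 and 2 and the study's factors 2 and 4. These shares and counts were not tested. FOS itself had 3314 and 3327 fragments with vehicle and 1904 and 1788 with gemcitabine, and was called lower. Its log2 fold change was -0.73 with an SE of 0.07 (edgeR, adjusted p = 1.5e-06). JUND had 2509 and 2450 against 1790 and 1786 fragments, and MAFK, a small MAF protein, 4890 and 5162 against 3283 and 3257, changes below 1.5-fold that were not called. The member near MAFK, 1.035 kb from its start, had a score of 155.86, and that near JUND, at 9.874 kb, 123.07. FOSL2, ATF3, JDP2 and BACH1 were linked and not called, with 1 AP-1 word among them, near BACH1.

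Of 28 tested genes of receptor tyrosine kinase and ERK signalling, 8 were called higher and 3 lower, beside 5.69% and 4.43% of all genes tested. A member was linked to 4 (14.3%, beside 11.0% of all genes), and 3 of these were called. EPHA2, an ephrin receptor kinase, had 985 and 991 fragments with vehicle and 1367 and 1404 with gemcitabine, with members 11.747 and 17.029 kb upstream. ETV4, an ETS factor induced by ERK, had 232 and 211 against 278 and 337. Both were called higher, and both lost the call without vehicle replicate 2 (log2 fold changes of 0.58 and 0.49) and without gemcitabine replicate 2 (0.57 and 0.43). DUSP1, a phosphatase of MAP kinases, was called lower, with 3990 and 4062 against 2317 and 2390 fragments. By library totals DUSP1 was no longer called, at a log2 fold change of -0.55. MET was linked and not called.

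The counts of the next lists stand beside 5.69% called higher, 4.43% called lower and 11.0% linked over all genes tested. Of 13 tested pancreatic lineage and ductal genes, 1 was called higher and 1 lower. These were the 2 linked genes of the list (15.4%). KRT19, a keratin of ductal epithelium, had 45 and 45 fragments with vehicle and 94 and 88 with gemcitabine, and its member lay 1.716 kb upstream. KLF4, a Kruppel-like factor of epithelia, had 1316 and 1443 against 648 and 703, with members 8.254 kb downstream and 13.963 kb upstream, the latter with the AP-1 word shown above. The log2 fold change of KLF4 was -0.91 with an SE of 0.08 (edgeR, adjusted p = 6.4e-07). Of 34 tested genes of the epithelial to mesenchymal transition and matrix, 6 were called higher and 1 lower. A member was linked to 7 (20.6%) and a vehicle-only distal peak to 9. FN1, which encodes fibronectin, had 2575 and 2678 against 3774 and 3812 and was called higher. Its member within 50 kb lay in a coding exon and carried an AP-1 word. It was 9.895 kb downstream of the nearest annotated FN1 start. That start lies inside the gene and is not the one used for the top-scoring FN1 member. The other linked genes of that list, CDH1, TGFB2, ITGB1, ITGB6, COL5A1 and THBS1, were not called, with log2 fold changes of -0.09 to 1.10. Apoptosis and survival genes were called higher in 4 and lower in 0 of 21 tested, and 3 were linked (14.3%). BMF, a BH3-only protein that promotes apoptosis, had 281 and 278 against 534 and 481 and was called higher, while BCL2L1, which opposes it, had 1064 and 1122 against 1426 and 1441 and BCL2L11 464 and 480 against 316 and 280, neither called. Of 20 tested Hippo pathway genes, 4 were called higher and 1 lower, 5 were linked, and ANKRD1 was the only linked one called. Among 17 tested transcription factors named by the study, 2 were called higher and 1 lower. RUNX2 and SRF were linked (11.8%) and neither was called. SRF had 1439 and 1407 against 1095 and 1054 fragments.

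The nearest start of 4 or more members belonged to 13 genes. KALRN, a guanine nucleotide exchange factor, LIMCH1, a regulator of actin stress fibres, and PIK3CB, a catalytic subunit of PI3 kinase, had 5 members each, and none was called. ABTB2, with 4 members, had 328 and 338 fragments with vehicle and 544 and 538 with gemcitabine. This gave a log2 fold change of 0.81 with an SE of 0.09 (edgeR, adjusted p = 6.8e-06). MYLK, myosin light chain kinase, also with 4, had 572 and 639 against 793 and 903 and was called higher. Its FPKM overlapped between conditions, with means of 18.1 with vehicle and 20.0 with gemcitabine. Its call was lost without vehicle replicate 1 (log2 fold change 0.56) or gemcitabine replicate 2 (0.49). CEMIP2, a cell surface hyaluronidase, had 1522 and 1699 against 2097 and 2274, a log2 fold change of 0.56, below the fold a call required. TNS3, a focal adhesion protein, went the other way, with 2198 and 2363 against 1497 and 1553, and was not called at -0.47. ABL2, DENND2A, HPCAL1, ITGB5 and TTC39C were tested and not called, and ODF1 had 0 fragments in every library. Of the 12 tested, 2 were called higher (16.7%, 4.70 to 44.8%) and 0 lower, and the interval holds the 5.69% of all genes.

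Of the 30 named genes called, 16 were not called by limma. On log2(FPKM + 1) it lost the calls of ABTB2, BIRC3, BMF, DUSP1, EPHA2, ETV4, FOS, HES7, HOXD10, KCNJ15, KICS2, KLF4, KRT19, MYLK, SESN2 and WDR89, with no change of direction, and kept those of the other 14, CDKN1A, ELF3 and ANKRD1 among them.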

How the data were processed

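The authors called DNaseI peaks with MACS on hg19 in each condition's single library at a p-value of 1e-05, and the deposited score of each peak (10 times the negative log10 of p) was used to rank and filter peaks. For RNA, TopHat2 2.0.8 mapped the single-end reads on hg19, and the authors deposited, from Cuffdiff 2.0.2, estimated counts of fragments per Gencode protein-coding gene. The deposited table also gives FPKM by the authors, and 2 further columns of scaled values were not used. Versions are from the submitters' processing notes. The members and lists were chosen with earlier results of these data known.

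Starts and gene parts came from protein-coding transcripts of Gencode v44lift37, a later annotation than the authors' on the same build. Motifs were searched on both strands in 300 bases at each peak's centre and 2 kb away. Estimated counts (13194535 to 15766232 a library, so that 3 fragments are 0.190 to 0.227 CPM) were rounded, filtered at 10 fragments over the 4 libraries and tested with edgeR 4.0.16 (quasi-likelihood, TMM, Benjamini-Hochberg) in R 4.3.3. A call needed an adjusted p under 0.05, a fold change over 1.5, a mean of 0.1 FPKM in 1 condition and a difference of 1 FPKM. Wilson intervals (95%) came from scipy 1.17.1. Scripts for counts and motifs were tested on simulated data.

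Named regions were the 10 highest scores, those at the limits and those linked to named genes. Named genes were the called linked genes with the 10 strongest rises and the 5 strongest falls (averaging 1 CPM or more, above 0 in each library, conditions apart), linked members of 10 gene lists, and genes nearest to 4 or more members. A gene that met this rule is not reported here. The alternatives were DESeq2 1.42.0, limma 3.58.1 on log2(FPKM + 1), other scaling and filters, each RNA library left out, and other rules for overlap, distance, score and window.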

Additional observations from a re-analysis of the deposited data

How the results depend on the processing

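The number of members stayed between 3139 and 3668 under other rules for overlap and distance, including starts of every transcript type, a rule chosen after the data were seen (3462), and was 282 at a score of at least 100. At that score 41.5% of members lay in introns and 16.3% had the AP-1 word. Of 149 linked genes, 13 (8.72%) were called higher and 9 (6.04%) lower, beside 5.69% and 4.43% of all genes tested. The AP-1 share was 13.1% in 200 bases and 34.7% in whole peaks. Linked genes called higher and lower numbered 60 and 31 of 642 with links of at most 10 kb (9.35% and 4.83%). They numbered 25 and 19 of 307 at 5 kb (8.14% and 6.19%). With every start within 50 kb they numbered 208 and 121 of 2865 (7.26% and 4.22%). The shares over all genes tested stayed at 5.69% and 4.43%. Linked genes called numbered 357 and 350 on adjusted p alone (21.8% and 21.3%, beside 18.5% and 20.0% of all genes). By limma on log2(FPKM + 1) they numbered 52 and 11 (3.17% and 0.671%, beside 2.02% and 0.700%). By library totals 165 were called higher (10.1%, beside 7.84% of all genes) and 45 lower (2.74%, beside 2.81%). Leaving out 1 RNA library gave 98 to 130 higher and 64 to 85 lower, where the lone library of a condition is assumed to vary like the other condition's. Counts at other scores, link distances and criteria cover fewer or more regions or genes by construction, and the cause of the other changes was not tested. Of 30 named genes called, all kept their direction under each RNA alternative, DESeq2 kept the calls of 30 and limma of 14. No paired analysis was possible because the deposited table numbers its RNA libraries in a way that could not be matched to the labels' numbers. With 1 DNaseI library a condition and no read counts per region, no difference in openness could be tested, and a region without a vehicle peak may lie just under the caller's limit.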
